A study of Mus musculus with 32 samples.

Results

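The mRNA levels of 10 genes of the circadian clock were described across BMDM-WT and BMDM-Nur77-KO macrophages before and after LPS. They are the transcription activators Arntl (also called Bmal1) and Clock, the repressors Per1, Per2, Per3, Cry1 and Cry2, the output factor Dbp, and Bhlhe40 and Bhlhe41, whose products (DEC1 and DEC2) repress transcription. The genes were chosen by name, and each is represented by its RefSeq transcript with the highest mean count. They make up 10 of 25067 genes in the table, and all 10 passed the filter that left 11190 genes for testing. Per2 and Per3 passed it only through their 18 h groups, where they are highest.

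Bone marrow-derived macrophages (BMDMs) came from male C57Bl6/J mice of 6 to 12 weeks and were differentiated for 7 days with L929-conditioned medium. BMDM-WT came from littermates with Nr4a1, the gene of Nur77, intact. BMDM-Nur77-KO, whose genotype the labels give as cre, came from whole-body knockouts made by deleting loxP-flanked Nr4a1 with Cre under the CMV promoter, after which Cre was bred out. Cells of each genotype were collected after 0, 1, 5 and 18 h with 100 ng/ml LPS, the bacterial lipopolysaccharide sensed by TLR4, and RNA-seq was done on 4 libraries for each of the 8 groups. How many animals gave these libraries is not stated, so the spread between them may be technical. No unstimulated cells were collected at 1, 5 or 18 h, so that LPS, hours in culture and the cells' own clock time cannot be told apart. As RNA came from whole cultures, fewer cells with a transcript and less of it per cell cannot be told apart either.

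In the mammalian clock, the ARNTL and CLOCK proteins bind as a pair to E-boxes, short DNA elements, and switch on the Per and Cry genes. The PER and CRY proteins then enter the nucleus and block the pair, which closes a daily feedback loop. DBP, the product of another E-box gene, activates through D-boxes, while BHLHE40 and BHLHE41 bind E-boxes themselves. In macrophages the clock is known to gate inflammatory responses, and BHLHE40 is known to promote inflammatory cytokine production.

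The regulatory letters of these genes frame the comparisons that follow. Promoter windows of 250 bases before to 50 after a transcription start were taken from RefSeq (GRCm38.p6), and 8 of the 10 genes had 12 windows among 32851. Per2 and Bhlhe40 had no entry. Both strands were searched for the E-box CACGTG, present in 7.15% of all windows, the D-box TTATGNAA in 3.38%, the cAMP response element TGACGTCA in 1.79%, the AP-1 site TGANTCA in 7.81%, the NBRE bound by Nur77, AAAGGTCA, in 1.51%, and an NF-kB motif in 0.411%. Of these, only E-boxes and D-boxes were found in the windows of the clock genes, in Per1, Per3, Cry1 and Bhlhe41. None of the 6 was found in those of Arntl, Clock, Cry2 or Dbp. The 4 windows with a match are printed 5′ to 3′ up to the base before the start, because they hold the elements that ARNTL, DBP and the BHLHE proteins are known to bind. Capitals mark the matches.
Per1 (chr11:69098699-69098948, plus strand): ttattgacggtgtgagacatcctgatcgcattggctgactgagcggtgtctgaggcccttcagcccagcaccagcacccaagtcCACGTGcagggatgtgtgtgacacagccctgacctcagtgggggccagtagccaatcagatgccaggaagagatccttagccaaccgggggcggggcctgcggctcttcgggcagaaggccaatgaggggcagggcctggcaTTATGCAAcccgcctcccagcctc
Per3 (chr4:151044666-151044915, minus strand): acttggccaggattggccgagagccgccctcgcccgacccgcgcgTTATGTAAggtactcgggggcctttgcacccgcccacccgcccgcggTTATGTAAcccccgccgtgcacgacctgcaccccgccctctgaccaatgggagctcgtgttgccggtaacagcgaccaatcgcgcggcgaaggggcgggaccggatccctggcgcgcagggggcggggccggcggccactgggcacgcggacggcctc
Cry1 (chr10:85185055-85185304, minus strand): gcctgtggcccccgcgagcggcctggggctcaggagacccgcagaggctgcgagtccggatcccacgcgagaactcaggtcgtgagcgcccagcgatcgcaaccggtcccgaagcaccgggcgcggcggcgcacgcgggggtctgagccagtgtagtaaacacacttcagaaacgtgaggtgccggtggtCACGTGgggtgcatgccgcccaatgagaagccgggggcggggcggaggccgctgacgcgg
Bhlhe41 (chr6:145865421-145865670, minus strand): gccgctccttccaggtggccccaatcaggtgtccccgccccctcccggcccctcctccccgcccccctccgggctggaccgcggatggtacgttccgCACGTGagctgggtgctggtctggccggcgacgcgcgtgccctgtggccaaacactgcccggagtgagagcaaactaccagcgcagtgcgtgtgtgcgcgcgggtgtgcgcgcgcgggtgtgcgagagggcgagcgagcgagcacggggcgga
The Per1 window held an E-box 166 bases and a D-box 24 bases before the start, and the Per3 window held D-boxes at 205 and 158 bases. The E-boxes of Cry1 and Bhlhe41 lay 60 and 153 bases before their starts. A match is a stretch of letters and not a measured binding site.

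Library totals ranged from 8742362 to 15780926 counts (median 11847140.0). Levels are given in CPM, the usual count scale relative to library size, here after TMM scaling. A gene is said to rise, fall or differ where edgeR's quasi-likelihood test gave an adjusted p under 0.05, with Benjamini-Hochberg adjustment over all 11190 genes. Nr4a1, counted over its whole transcript, was lower in BMDM-Nur77-KO but still present, with 4.46 to 7.03 CPM against 15.5 to 25.8 before LPS and 147 to 243 CPM against 360 to 486 at 1 h. Later means were near the floor, with 0.312 against 0.928 CPM at 5 h, a called difference, and 0.225 against 0.319 CPM at 18 h, not called. All 8 macrophage markers examined were present, and their summed level was 1.10e+04 to 1.90e+04 CPM over all libraries, with 1.32e+04 to 1.61e+04 in BMDM-Nur77-KO against 1.65e+04 to 1.79e+04 in BMDM-WT at 5 h and 1.10e+04 to 1.27e+04 against 1.40e+04 to 1.47e+04 at 18 h. KO 5 h replicate 1 and KO 18 h replicate 4 stood apart from the rest of their groups, with correlations of 0.9697 and 0.9824 to the mean of the others and a depletion of transcripts rich in G and C. Calls of the 10 clock genes that rest on them are given with and without them. WT 18 h replicate 3 had a milder depletion, by log2 -0.53 beside -1.05 and -0.75 in those 2, and a correlation of 0.9909. It was kept when the 2 were left out. Summed T cell markers, all low, were 0.417 to 1.13 CPM in BMDM-WT and 0 to 0.257 CPM in BMDM-Nur77-KO, and at 18 h dendritic cell markers summed to 7.58 to 9.92 CPM in BMDM-Nur77-KO against 3.71 to 4.26 CPM. Of the dendritic cell markers, Flt3, Siglech and Zbtb46 had at most 4, 5 and 15 counts in any library, beside 194 for Xcr1 and 68 for Ccr7. Neutrophil markers were apart at 1 h, with 36.8 to 44.9 CPM in BMDM-Nur77-KO against 24.9 to 33.6 CPM, and fibroblast markers were barely apart at 0 h, with 0.365 to 0.479 against 0 to 0.364 CPM. The part of these differences in the genotype results was not tested.

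Most of the clock genes fell within 5 h of LPS, and several were above their starting level at 18 h. Between 0 and 5 h, 8 of 10 genes fell and 1 rose in BMDM-WT, where 40.1% of all genes fell and 30.1% rose (70.2% in either direction). BMDM-Nur77-KO had the same counts, 8 lower and 1 higher, where 39.3% of all genes fell and 32.2% rose (71.4%). The median log2 change of the 10 genes was -2.46 in BMDM-WT and -2.23 in BMDM-Nur77-KO, beside -0.14 and -0.12 for all genes tested. Measured from 1 to 5 h, 8 fell and 1 rose in BMDM-WT (36.2% and 29.0% of all genes, 65.2% together), and 7 fell and 1 rose in BMDM-Nur77-KO (38.3% and 32.5%, 70.8% together).

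From 5 to 18 h the direction turned. In BMDM-WT 7 genes rose and 1 fell, beside 36.1% and 33.4% of all genes (69.4% together), and in BMDM-Nur77-KO the counts were also 7 and 1, beside 35.1% and 34.2% (69.3%). Relative to 0 h, 4 genes were higher and 2 lower at 18 h in BMDM-WT, where 32.4% of all genes were higher and 33.9% lower (66.4%). The knockout had 7 higher and 2 lower, where 33.8% of all genes were higher and 35.6% lower (69.5%). The genes that rose or were higher at 18 h include Per2 and Per3 in each of these counts. As both passed the filter only through their 18 h groups, their part in the counts rests on the levels that selected them. The first hour moved fewer genes, with 3 higher and 1 lower in BMDM-WT (10.1% and 10.2% of all genes, 20.3% together) and 2 higher in BMDM-Nur77-KO (6.90% higher and 5.39% lower, 12.3% together). All comparisons with 0 h within a genotype share the same 4 libraries.

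**Figure D1:**
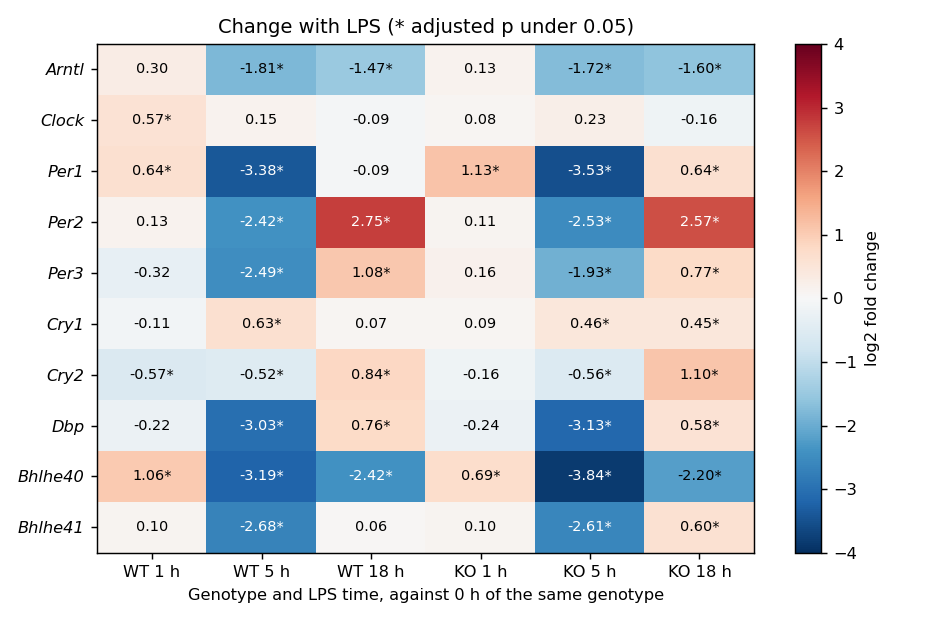
Log2 fold change of each gene (rows) at 1, 5 and 18 h of LPS against 0 h of the same genotype (columns), from edgeR, with an asterisk where the adjusted p was under 0.05. The 5 h columns are blue for 8 of 10 genes in both genotypes, the exceptions being Clock and Cry1, and Per2 is the deepest red at 18 h with 2.75 in WT and 2.57 in KO.

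Before LPS, the E-box repressors were the most abundant of the set when levels were divided by transcript length. Mean levels in BMDM-WT were 15.0 CPM per kb for Bhlhe40 and 11.1 for Bhlhe41, the latter over the 6133 bases of its longest transcript. Per1 was next with 5.82 CPM per kb, followed by Dbp with 4.67, Clock with 4.01, Arntl with 3.51, Cry1 with 2.71 and Cry2 with 1.40. Per3 and Per2 were the lowest, with 0.633 and 0.242 CPM per kb.

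The 2 activators parted after LPS, as Arntl fell and stayed low while Clock rose at 1 h in BMDM-WT and then stood near its starting level. Arntl (chr7:113178471-113314126, plus strand) had 9.34, 9.38, 11.8 and 10.3 CPM in the BMDM-WT libraries at 0 h and 15.0, 13.0, 11.1 and 11.1 CPM at 1 h. At 5 h its levels were 2.60, 3.17, 3.32 and 2.47 CPM, and at 18 h 3.47, 4.66, 3.74 and 2.85 CPM. No library at 5 or 18 h reached the lowest library at 0 or 1 h. The decrease from 0 to 5 h was 3.51-fold (log2 -1.81 ± 0.17 SE, adjusted p = 4.1e-11, edgeR), and at 18 h the level was still 2.77-fold below 0 h (log2 -1.47 ± 0.15, adjusted p = 8.6e-10). In BMDM-Nur77-KO the course was alike, with 8.95 to 13.0 CPM at 0 h, 9.78 to 13.3 at 1 h, 2.84 to 3.82 at 5 h and 3.02 to 4.15 at 18 h. Genotypes overlapped at every time, with log2 differences of 0.13, -0.04, 0.22 and 0.00 at 0, 1, 5 and 18 h, none past the test. Of the 8 groups, the 4 at 0 and 1 h lay apart from the 4 at 5 and 18 h, and neighbours within each 4 overlapped.

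Clock (chr5:76209868-76305603, minus strand), whose product is the DNA-binding partner of ARNTL, had 38.4, 44.1, 37.0 and 36.6 CPM in BMDM-WT at 0 h and rose to 51.1, 53.1, 59.5 and 68.1 CPM at 1 h. That was a 1.48-fold increase (log2 0.57 ± 0.14, adjusted p = 0.0027), with every 1 h library above every 0 h library. At 5 h the BMDM-WT libraries were at 40.5 to 47.1 CPM and at 18 h at 31.3 to 48.6 CPM, neither past the test against 0 h. In BMDM-Nur77-KO, levels were 59.6, 47.2, 52.2 and 42.3 CPM at 0 h, 48.7 to 56.1 at 1 h, 77.0, 56.9, 54.8 and 48.2 at 5 h and 38.1 to 53.1 at 18 h. All neighbours in the order of the 8 groups overlapped, and the highest group mean was 1.58 times the lowest in BMDM-WT and 1.31 times in BMDM-Nur77-KO, the narrowest range of the set in both. The higher level in BMDM-Nur77-KO at 5 h passed the test (log2 0.45 ± 0.14, adjusted p = 0.020) and its libraries did not overlap those of BMDM-WT. It rested on KO 5 h replicate 1, the library at 77.0 CPM that stood apart, since without that library the log2 difference was 0.30 (adjusted p = 0.14). The call was also lost without WT 5 h replicate 1 (0.43, adjusted p = 0.053) or WT 5 h replicate 2 (0.42, adjusted p = 0.059). From 5 to 18 h Clock fell in BMDM-Nur77-KO (log2 -0.39 ± 0.14, adjusted p = 0.012), but not past the test without KO 5 h replicate 1 (-0.24, adjusted p = 0.099) or KO 18 h replicate 2 (-0.32, adjusted p = 0.055).

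**Figure D2:**
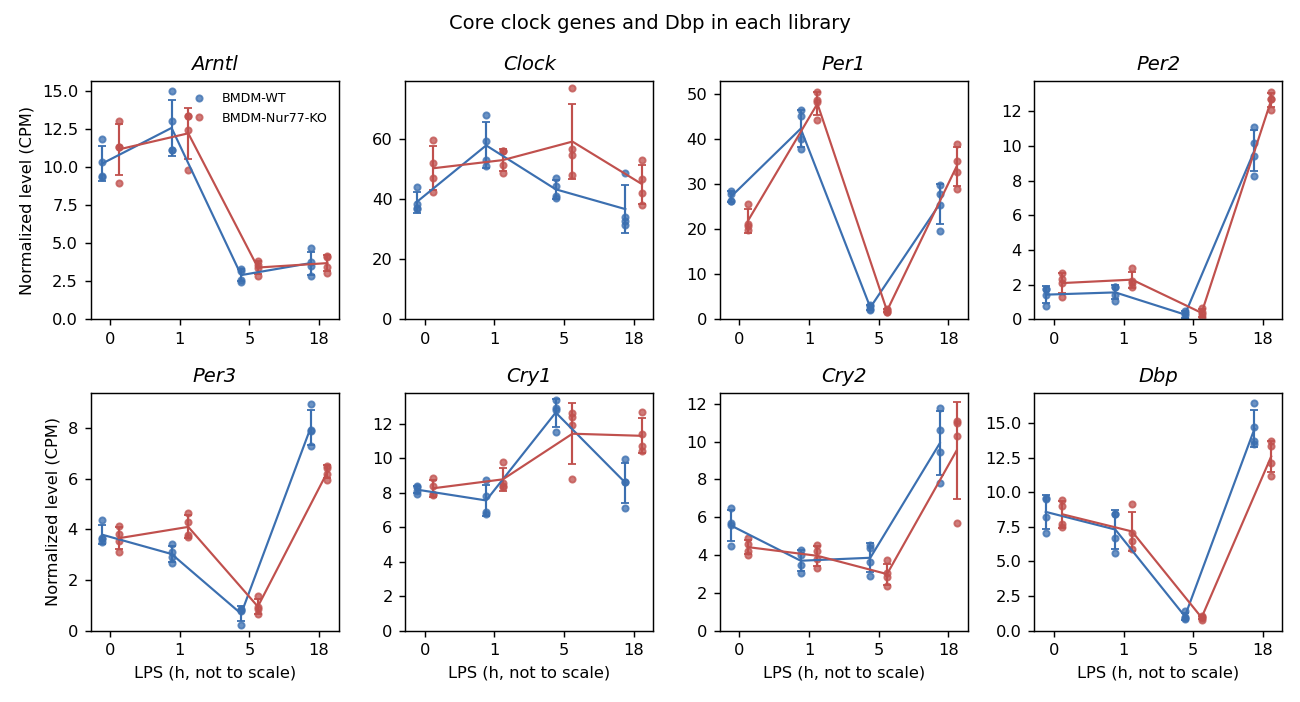
Level (CPM) of the 8 clock genes other than Bhlhe40 and Bhlhe41 in each library (points) at 0, 1, 5 and 18 h of LPS, with the mean of 4 libraries and SD (lines and bars), BMDM-WT in blue and BMDM-Nur77-KO in red. Per1, Per2, Per3 and Dbp dip at 5 h, Arntl steps down, and the Clock library of KO at 5 h that reaches 77.0 CPM is the one that stood apart.

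The 3 Per genes encode the PER repressors, and each dropped to its lowest level at 5 h in both genotypes. They differed in what came before and after. Per1 rose at 1 h and returned at 18 h to about its starting level in BMDM-WT, whereas Per2 and Per3 did not pass the test at 1 h and ended above the start.

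Per1 (chr11:69095108-69109965, plus strand), an immediate-early member of the family, stood in BMDM-WT at 28.5, 27.8, 26.3 and 26.2 CPM at 0 h, 45.0, 46.4, 39.9 and 37.7 at 1 h, 2.94, 1.95, 3.10 and 2.36 at 5 h, then 25.4, 27.8, 19.5 and 29.8 at 18 h. In BMDM-Nur77-KO the libraries had 20.7, 21.1, 19.7 and 25.6 CPM at 0 h, 50.3, 48.2, 44.2 and 48.5 at 1 h, 1.52, 2.34, 1.62 and 1.96 at 5 h, then 32.7, 35.1, 38.9 and 28.8 at 18 h. All libraries at 5 h were far below those of any other time, and all at 1 h were above those at 0 h. The increase at 1 h was 1.56-fold in BMDM-WT (log2 0.64 ± 0.11, adjusted p = 5.7e-05) and 2.20-fold in BMDM-Nur77-KO (log2 1.13 ± 0.11, adjusted p = 2.5e-09). The decrease from 1 to 5 h was 16.2-fold and 25.3-fold, the 96th and 38th lowest log2 change of 11190 genes in BMDM-WT and BMDM-Nur77-KO. At 18 h Per1 did not differ from 0 h past the test in BMDM-WT (log2 -0.09 ± 0.11, adjusted p = 0.52) but was 1.56-fold above it in BMDM-Nur77-KO (log2 0.64 ± 0.11, adjusted p = 1.2e-05).

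Per2 (chr1:91415977-91459351, minus strand) had the widest range of the 10 genes, and its lowest levels rest on few counts. In BMDM-WT it had 1.38, 1.77, 0.759 and 1.75 CPM at 0 h, 1.85, 1.41, 1.88 and 1.04 at 1 h, 0.226, 0.366, 0 and 0.471 at 5 h, then 10.2, 8.28, 11.1 and 9.40 at 18 h. In BMDM-Nur77-KO it had 1.28, 2.67, 2.31 and 2.08 CPM at 0 h, 2.23, 2.94, 2.08 and 1.88 at 1 h, 0.650, 0.418, 0.286 and 0.0979 at 5 h, then 12.7, 12.1, 12.7 and 13.1 at 18 h. In both genotypes the 18 h libraries were above, and the 5 h libraries below, all libraries of the other times. Only 9 counts in all were seen in the 4 BMDM-WT libraries at 5 h and 15 in those of BMDM-Nur77-KO, so ratios are given with exact 95% counting intervals that cover counting error only. Scaled to library size, the summed counts at 0 h were 5.58 times those at 5 h in BMDM-WT (2.81 to 12.6) and 5.99 times in BMDM-Nur77-KO (3.48 to 11.1). At 18 h they were 37.6 times (19.6 to 82.8) and 35.4 times (21.3 to 63.6) those at 5 h. Among all genes tested, this rise from 5 to 18 h was the 8th largest in BMDM-WT and the 12th largest in BMDM-Nur77-KO by fitted log2 change. Per2 passed the filter only through its 18 h groups, at 1.67 and 2.17 CPM per kb against at most 0.392 in the others. Its place among the genes tested thus rests on the same 18 h levels as the rank. Against 0 h, Per2 at 18 h was 6.74-fold higher in BMDM-WT (log2 2.75 ± 0.23, adjusted p = 4.0e-12) and 5.95-fold higher in BMDM-Nur77-KO (log2 2.57 ± 0.21, adjusted p = 4.3e-12).

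Per3 (chr4:150997018-151044707, minus strand), the third PER gene, took the same shape over a narrower range, its highest group mean being 11.9 times its lowest in BMDM-WT and 6.55 times in BMDM-Nur77-KO, beside 36.7 and 34.8 times for Per2. Levels in BMDM-WT were 3.52 to 4.37 CPM at 0 h, 2.68 to 3.42 at 1 h, 0.221 to 0.853 at 5 h and 7.30 to 8.96 at 18 h. BMDM-Nur77-KO had 3.11 to 4.15, 3.69 to 4.65, 0.668 to 1.37 and 5.96 to 6.52 CPM at the same times. Libraries at 5 h, with 2 to 14 counts each, were apart from all others, and those at 18 h were above all others of their genotype. Per3 fell 5.62-fold from 0 to 5 h in BMDM-WT (log2 -2.49 ± 0.22, adjusted p = 1.4e-11) and 3.80-fold in BMDM-Nur77-KO (log2 -1.93 ± 0.20, adjusted p = 3.8e-10). At 18 h it was 2.11-fold above 0 h in BMDM-WT (adjusted p = 6.4e-08, edgeR) and 1.71-fold in BMDM-Nur77-KO (adjusted p = 2.1e-05, edgeR). Like Per2, Per3 passed the filter only through its 18 h groups, at 1.34 and 1.04 CPM per kb against at most 0.683 in the others.

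The 2 cryptochromes, partners of the PER proteins in repression, moved less than the Per genes and in opposite directions at 5 h. Cry1 (chr10:85131700-85185054, minus strand) had 8.34, 8.13, 7.90 and 8.37 CPM in BMDM-WT at 0 h and 12.9, 13.4, 12.8 and 11.5 CPM at 5 h, with 6.77 to 8.72 CPM at 1 h and 7.14 to 9.97 CPM at 18 h. Every 5 h library was above every library of the other times. The 5 h level was 1.55-fold that at 0 h (log2 0.63 ± 0.11, adjusted p = 1.2e-05), which made Cry1 the only gene of the set that rose between 0 and 5 h, and it fell again by 18 h (log2 -0.56 ± 0.11, adjusted p = 7.8e-05). In BMDM-Nur77-KO it had 7.85 to 8.88 CPM at 0 h and 12.6, 8.79, 12.4 and 11.9 CPM at 5 h, an increase that passed the test (log2 0.46 ± 0.11, adjusted p = 6.0e-04) although replicate 2 overlapped the 0 h libraries. It then held 10.4, 11.4, 12.7 and 10.7 CPM at 18 h, with no change from 5 h past the test (log2 -0.01 ± 0.11, adjusted p = 0.94).

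Cry2 (chr2:92403646-92434085, minus strand) had 5.59, 4.48, 5.69 and 6.48 CPM in BMDM-WT at 0 h and ended at 11.8, 7.81, 9.47 and 10.6 CPM at 18 h, a 1.79-fold increase (log2 0.84 ± 0.17, adjusted p = 8.0e-05). In BMDM-Nur77-KO it went from 4.00 to 4.89 CPM at 0 h to 11.0, 11.1, 10.3 and 5.70 CPM at 18 h, 2.15-fold higher (log2 1.10 ± 0.18, adjusted p = 2.2e-06). Every 18 h library was above those at 0 h, though KO 18 h replicate 4, one of the libraries that stood apart, had little more than the highest at 0 h. In between, Cry2 was at 3.03 to 4.27 CPM at 1 h and 2.87 to 4.53 at 5 h in BMDM-WT, and at 3.31 to 4.55 and 2.38 to 3.72 CPM in BMDM-Nur77-KO. The decreases at 1 h in BMDM-WT (log2 -0.57 ± 0.19, adjusted p = 0.029) and at 5 h in BMDM-WT (log2 -0.52 ± 0.20, adjusted p = 0.020) and BMDM-Nur77-KO (log2 -0.56 ± 0.20, adjusted p = 0.016) were near the threshold, and all 3 were lost when the levels were corrected for GC content (log2 -0.40, -0.27 and -0.30, adjusted p = 0.064, 0.14 and 0.12). The BMDM-WT decrease at 5 h was not called by DESeq2 (log2 -0.43, adjusted p = 0.058) or by edgeR with DESeq2's size factors (log2 -0.43, adjusted p = 0.050). At 1 h the decrease was also lost without WT 0 h replicate 1, 3 or 4 or WT 1 h replicate 3 or 4, with log2 changes of -0.56, -0.55, -0.48, -0.53 and -0.49. At 5 h it was lost in BMDM-WT without WT 0 h replicate 4 (-0.44) or WT 5 h replicate 3 (-0.40), and in BMDM-Nur77-KO without KO 5 h replicate 1 (-0.47).

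Dbp (chr7:45705100-45710203, plus strand), a D-box activator driven by the clock, followed Per3 closely. In BMDM-WT it had 7.04, 8.18, 9.49 and 9.61 CPM at 0 h, 8.41, 8.46, 6.71 and 5.64 at 1 h, 0.906, 0.975, 0.884 and 1.41 at 5 h, then 13.5, 14.7, 13.7 and 16.4 at 18 h. In BMDM-Nur77-KO it had 7.49 to 9.43, 5.93 to 9.18, 0.783 to 1.08 and 11.2 to 13.7 CPM at those times. The 5 h libraries, with 8 to 12 counts each, lay below and the 18 h libraries above all others in both genotypes. Dbp fell 8.16-fold from 0 to 5 h in BMDM-WT (log2 -3.03 ± 0.20, adjusted p = 1.1e-14) and 8.73-fold in BMDM-Nur77-KO (log2 -3.13 ± 0.19, adjusted p = 3.2e-15). By 18 h it was 1.70-fold above 0 h in BMDM-WT (log2 0.76 ± 0.13, adjusted p = 7.5e-06) and 1.49-fold in BMDM-Nur77-KO (log2 0.58 ± 0.13, adjusted p = 3.2e-04). The genotypes overlapped at all 4 times, with log2 differences of -0.03, -0.04, -0.12 and -0.21. The 3′ end of Dbp overlaps Sphk2 on the other strand, which averaged 878 counts against 95.2 for Dbp, and whether the counting used the strand is not stated. Sphk2 changed less between 0 and 5 h, by log2 -0.55 ± 0.17 in BMDM-WT and -1.16 ± 0.18 in BMDM-Nur77-KO. From 0 to 18 h it rose more than Dbp, by log2 0.84 ± 0.17 in BMDM-WT and 1.09 ± 0.17 in BMDM-Nur77-KO. The Sphk2 values are given only with the libraries that stood apart included. The part of shared reads in the changes of Dbp was not tested.

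Bhlhe40 (chr6:108660629-108666925, plus strand), which encodes the E-box repressor DEC1, was the one gene of the set that differed between genotypes at all 4 times, and it was higher in BMDM-Nur77-KO at each. Before LPS it had 43.3, 51.0, 44.2 and 48.4 CPM in BMDM-WT and 105, 101, 98.8 and 103 CPM in BMDM-Nur77-KO. At 1 h it had 103, 99.1, 87.6 and 101 CPM against 182, 173, 143 and 162 CPM. The lowest knockout library was above the highest wild-type library at both times, and unstimulated BMDM-Nur77-KO already overlapped BMDM-WT at 1 h of LPS. At 5 h levels were 5.78, 4.14, 5.09 and 5.42 CPM in BMDM-WT and 5.31, 6.36, 9.54 and 7.25 CPM in BMDM-Nur77-KO, which overlapped. At 18 h they were 8.50, 9.33, 7.99 and 9.14 CPM against 21.1, 21.2, 23.9 and 22.5 CPM, again apart.

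The genotype difference of Bhlhe40 was 2.18-fold at 0 h (log2 1.13 ± 0.10, adjusted p = 1.0e-09), 1.69-fold at 1 h (log2 0.76 ± 0.10, adjusted p = 1.6e-06), 1.39-fold at 5 h (log2 0.48 ± 0.14, adjusted p = 0.014) and 2.54-fold at 18 h (log2 1.34 ± 0.11, adjusted p = 1.7e-10). It was 1 of 93 genes, 0.831% of those tested, with a higher call in the knockout at each of the 4 times. At 0, 1 and 18 h the call held in every alternative run, with log2 differences from 1.09 to 1.17, 0.71 to 0.82 and 1.30 to 1.38 when single libraries were left out. At 5 h it was lost without WT 5 h replicate 2 (0.39, adjusted p = 0.062) or KO 5 h replicate 3 (0.31, adjusted p = 0.090), and when only the 8 libraries of that time were fitted (0.47, adjusted p = 0.22), but not without the libraries that stood apart (0.58, adjusted p = 0.005). The antisense gene 0610040F04Rik overlaps the 5′ end of Bhlhe40 and averaged 17.1 counts against 736.

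After LPS, Bhlhe40 first rose and then fell in both genotypes. At 1 h it was 2.09-fold above 0 h in BMDM-WT (log2 1.06 ± 0.10, adjusted p = 3.3e-10) and 1.62-fold in BMDM-Nur77-KO (log2 0.69 ± 0.10, adjusted p = 1.5e-06). From 1 to 5 h it fell 19.0-fold and 23.1-fold, the 72nd and 42nd lowest log2 change of 11190 genes. By 18 h it had risen 1.71-fold from 5 h in BMDM-WT and 3.11-fold in BMDM-Nur77-KO, but unlike the Per genes it stayed below 0 h, 5.34-fold in BMDM-WT (adjusted p = 3.3e-18, edgeR) and 4.60-fold in BMDM-Nur77-KO (adjusted p = 3.6e-18, edgeR).

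**Figure D3:**
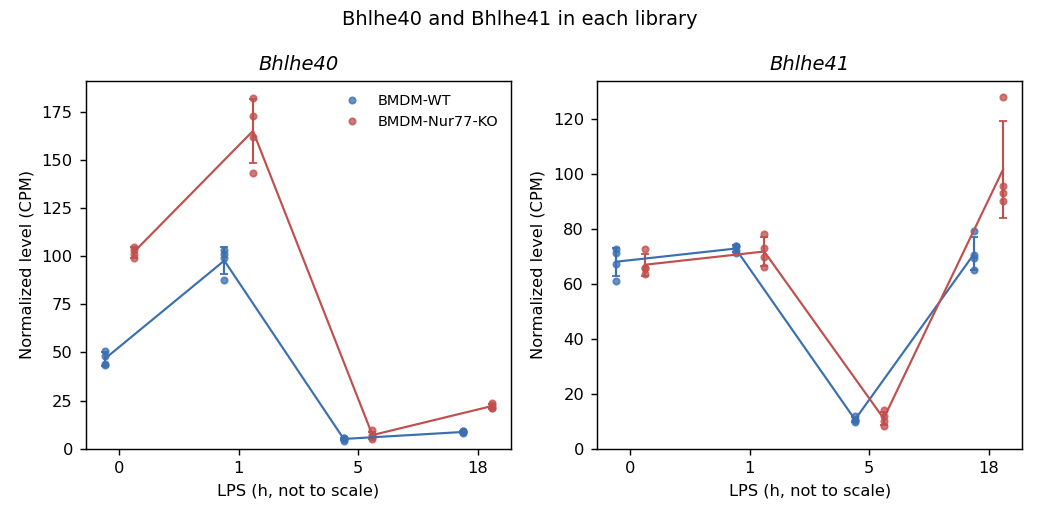
Level (CPM) of Bhlhe40 (left) and Bhlhe41 (right) in each library (points) at 0, 1, 5 and 18 h of LPS, with the mean of 4 libraries and SD (lines and bars), BMDM-WT in blue and BMDM-Nur77-KO in red. The red Bhlhe40 points lie above the blue ones at 0, 1 and 18 h, while the Bhlhe41 points separate only at 18 h.

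Bhlhe41 (chr6:145858243-145865420, minus strand), the paralog that encodes DEC2, did not pass the test at 1 h and was back near its starting level at 18 h in BMDM-WT. In BMDM-WT it had 72.7, 71.2, 61.3 and 67.4 CPM at 0 h, 71.3 to 74.0 at 1 h, 10.5, 10.5, 11.8 and 9.78 at 5 h, then 65.3, 69.5, 79.4 and 70.6 at 18 h. BMDM-Nur77-KO had 72.8, 63.8, 65.9 and 65.7 CPM at 0 h, 66.3 to 78.4 at 1 h, 14.0, 11.9, 10.0 and 8.23 at 5 h, then 93.1, 90.3, 95.8 and 128 at 18 h. At 5 h all libraries were below those of the other times, and genotypes overlapped until 18 h, when every knockout library was higher. The drop from 0 to 5 h was 6.39-fold in BMDM-WT (log2 -2.68 ± 0.12, adjusted p = 1.6e-18) and 6.08-fold in BMDM-Nur77-KO (log2 -2.61 ± 0.12, adjusted p = 2.1e-18). The knockout level of Bhlhe41 at 18 h was 1.43-fold that of BMDM-WT (log2 0.52 ± 0.10, adjusted p = 4.2e-04). The highest library, KO 18 h replicate 4, was one of those that stood apart, and without these the log2 difference was 0.39 ± 0.08 (adjusted p = 2.9e-04, edgeR).

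The ratio of Bhlhe40 to Bhlhe41 counts within each library needs no scaling to library size. Its size depends on the lengths of both transcripts, but its change between groups does not. In time order, the median ratios in BMDM-WT were 0.717, 1.36, 0.489 and 0.130. In BMDM-Nur77-KO they were 1.54, 2.32, 0.708 and 0.230. The ranges of the genotypes were apart at 0 h (0.595 to 0.720 against 1.45 to 1.57), 1 h (1.23 to 1.39 against 2.05 to 2.49) and 18 h (0.101 to 0.134 against 0.176 to 0.250), and overlapped at 5 h (0.395 to 0.554 against 0.380 to 0.952).

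**Figure D4:**
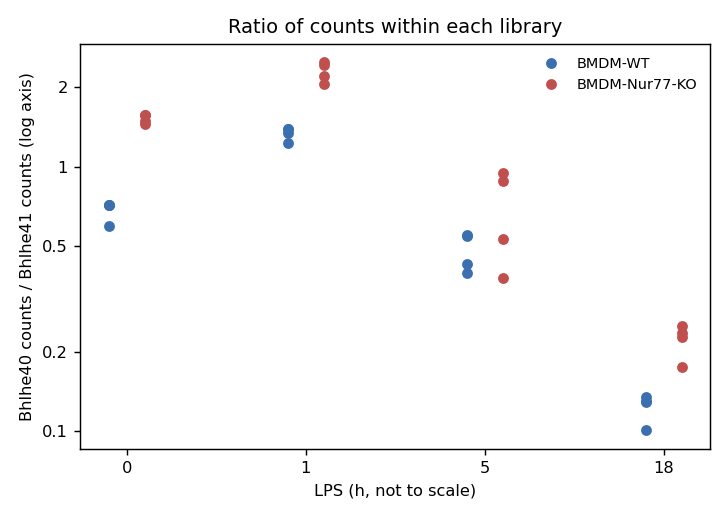
Bhlhe40 counts divided by Bhlhe41 counts in each library (points, log axis) at 0, 1, 5 and 18 h of LPS, BMDM-WT in blue and BMDM-Nur77-KO in red. All 4 red points lie above all 4 blue ones at 0, 1 and 18 h, and both genotypes are lowest at 18 h.

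The number of clock genes called between genotypes was highest at 18 h, and at 0, 1 and 5 h it was near the share over all genes. At 0 h 1 of 10 was called, Bhlhe40, where 6.33% of all genes were higher and 6.33% lower (12.7% together). It was again the 1 gene called at 1 h, where 3.48% of all genes were higher and 3.06% lower (6.53%). The 2 genes called at 5 h were Bhlhe40 and Clock, both higher, beside 13.7% of all genes higher and 10.7% lower (24.4%). At 18 h 4 of 10 were called, all higher in BMDM-Nur77-KO, beside 11.7% of all genes higher and 9.93% lower (21.7%). The libraries of the genotypes did not overlap for 2, 3, 1 and 5 of the 10 genes in time order, against 22.7%, 19.4%, 18.9% and 21.1% of all genes.

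At 18 h the genes higher in BMDM-Nur77-KO were Bhlhe40, Bhlhe41, Per1 and Cry1. Per1 was 1.32-fold higher (log2 0.40 ± 0.11, adjusted p = 0.0098), with 1 wild-type library at 29.8 CPM within the knockout range of 28.8 to 38.9. Cry1 was also 1.32-fold higher (log2 0.40 ± 0.11, adjusted p = 0.010), with 10.4 to 12.7 CPM in every knockout library above 7.14 to 9.97 CPM. The Per1 call was lost without WT 18 h replicate 3 (0.29, adjusted p = 0.051) or KO 18 h replicate 3 (0.33, adjusted p = 0.054), and the Cry1 call without WT 18 h replicate 2 (0.32, adjusted p = 0.056) or KO 18 h replicate 3 (0.33, adjusted p = 0.052). Fitted on the 8 libraries of that time alone, adjusted p was 0.10 for Per1 and 0.088 for Cry1. Without the libraries that stood apart, both were called, at 0.48 and 0.42. Per2 and Per3 at 18 h did not overlap between genotypes but missed the threshold, Per2 with a higher level in BMDM-Nur77-KO (log2 0.37 ± 0.18, adjusted p = 0.15) and Per3 with a lower one (log2 -0.35 ± 0.14, adjusted p = 0.061).

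**Figure D5:**
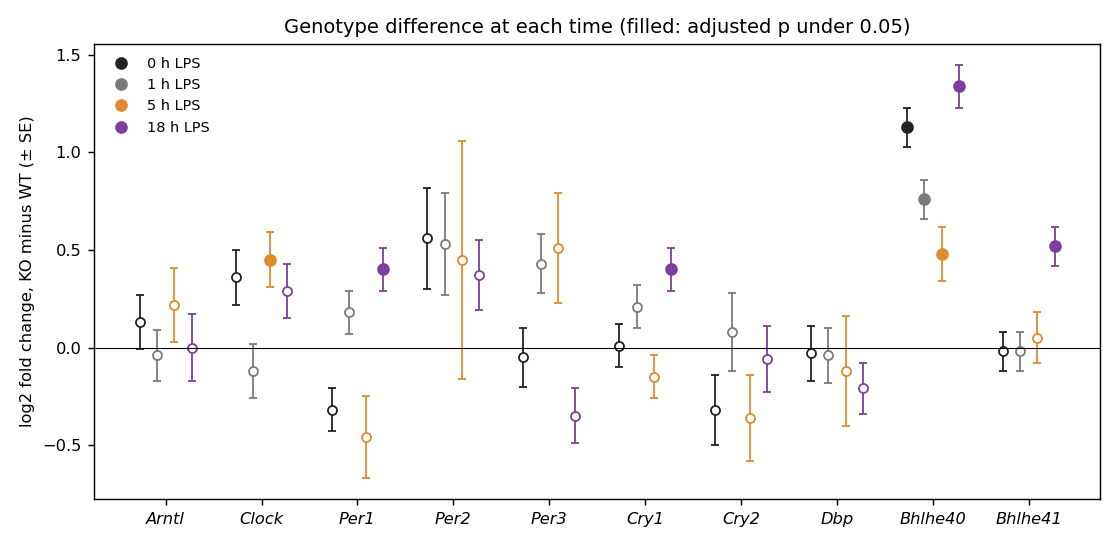
Log2 fold change of BMDM-Nur77-KO over BMDM-WT (points, ± SE of the fit) for each gene at 0, 1, 5 and 18 h of LPS, filled where the adjusted p was under 0.05. Bhlhe40 is filled at all 4 times, with 1.13, 0.76, 0.48 and 1.34, and Clock is filled only at 5 h and Per1, Cry1 and Bhlhe41 only at 18 h.

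Whether the change from 0 h differed by genotype was tested as an interaction. Fitted to all libraries, neither edgeR nor DESeq2 called a member at 1 h, where edgeR called 0.0715% of all genes. By edgeR 4 of 10, beside 11.1% of all genes, had an unadjusted p under 0.05. Fitted on the libraries compared alone, edgeR called Per1 (log2 0.48, adjusted p = 0.043). At 5 h the interaction was called for Bhlhe40 alone, against 3.12% of all genes (1.74% higher, 1.38% lower), with a deeper fall in BMDM-Nur77-KO (log2 -0.65 ± 0.17, adjusted p = 0.030). That call was lost without the libraries that stood apart (-0.54, adjusted p = 0.058) and without any 1 of 8 single libraries, WT 0 h replicates 1 and 3 (-0.61 and -0.62), WT 5 h replicates 1, 3 and 4 (-0.58, -0.65 and -0.62), KO 0 h replicate 1 (-0.63) and KO 5 h replicates 1 and 2 (-0.54 and -0.59). At 18 h Per1 (log2 0.72 ± 0.16, adjusted p = 0.0026) and Bhlhe41 (log2 0.54 ± 0.15, adjusted p = 0.016) were called, 2 of 10 against 9.42% of all genes (5.35% higher, 4.07% lower), both with a higher 18 h level relative to 0 h in BMDM-Nur77-KO. Both calls were kept in every alternative run, from 0.61 to 0.81 for Per1 and 0.41 to 0.60 for Bhlhe41 with single libraries left out. For Per1, the 0 h level entered the difference, at 26.2 to 28.5 CPM in BMDM-WT and 19.7 to 25.6 CPM in BMDM-Nur77-KO, apart but not called (log2 -0.32 ± 0.11, adjusted p = 0.062). Without KO 0 h replicate 4, the Per1 difference at 0 h was called at -0.41 (adjusted p = 0.022), as was Clock at 0.44 (adjusted p = 0.041).

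The remaining genes of the clock loop were read from a list of 16, of which 12 were tested. From 0 to 5 h, 4 rose and 5 fell in BMDM-WT, beside 30.1% and 40.1% of all genes, and 4 rose and 6 fell in BMDM-Nur77-KO, beside 32.2% and 39.3%. These counts are near the shares over all genes. Npas2, a paralog of Clock, fell from 6.84 to 0.644 CPM in BMDM-WT (log2 -3.40 ± 0.25, adjusted p = 2.0e-13) and from 9.68 to 0.662 CPM in BMDM-Nur77-KO (log2 -3.83 ± 0.23, adjusted p = 1.6e-15). Usp2, a deubiquitinase of clock proteins, fell from 4.44 to 0.903 CPM and from 5.66 to 0.476 CPM. The 5 h levels of both rest on few counts. Npas2 had 3 to 9 per library in BMDM-WT and 6 to 10 in BMDM-Nur77-KO, and Usp2 had 5 to 10 and 4 to 6. Nr1d1, which encodes the Arntl repressor REV-ERB alpha, averaged 3.41 CPM in BMDM-WT at 0 h and 0.143 CPM at 5 h, where no library had more than 2 counts, so no fold is given. In BMDM-Nur77-KO it fell from 3.44 to 0.737 CPM (log2 -2.17 ± 0.31, adjusted p = 2.6e-07). By 18 h 6 genes were above 0 h and 4 below in BMDM-WT, beside 32.4% and 33.9% of all genes, and 7 above and 3 below in BMDM-Nur77-KO, beside 33.8% and 35.6%. Npas2 and Usp2 were still low, at 1.43 and 1.33 CPM in BMDM-WT, while Nr1d2, the REV-ERB beta gene, went from 35.0 to 115 CPM in BMDM-WT (log2 1.72 ± 0.17, adjusted p = 1.9e-10) and from 40.4 to 150 CPM in BMDM-Nur77-KO (log2 1.90 ± 0.17, adjusted p = 1.9e-11).

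Between genotypes, 3 of the 12 were called at 0 h (2 higher, 1 lower), 1 at 1 h, 5 at 5 h (3 higher, 2 lower) and 2 at 18 h, both higher, beside 12.7%, 6.53%, 24.4% and 21.7% of all genes in time order. Rora, an activator of Arntl, had more mRNA in BMDM-Nur77-KO at 0 h (28.9 against 19.2 CPM, adjusted p = 0.011, edgeR), at 5 h (10.3 against 6.50 CPM, adjusted p = 0.015, edgeR) and at 18 h (23.7 against 13.2 CPM, adjusted p = 2.0e-04, edgeR). Nr1d1 was called higher at 5 h (adjusted p = 0.008, edgeR), on 3 to 17 counts per knockout library against 0 to 2. Timeless, whose product acts in DNA replication, was lower at 0 h (10.8 against 16.2 CPM, adjusted p = 8.2e-04, edgeR) and had the one called interaction at 18 h (log2 0.82 ± 0.16, adjusted p = 4.9e-04).

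Of 6 clock output genes, 5 were tested. Tef, a PAR bZIP factor related to Dbp, fell with it, from 37.1 CPM at 0 h to 4.22 CPM at 5 h in BMDM-WT (log2 -3.13 ± 0.16, adjusted p = 6.7e-17) and from 36.3 to 5.05 CPM in BMDM-Nur77-KO (log2 -2.83 ± 0.16, adjusted p = 2.4e-16). Nfil3, which represses through the same D-boxes, rose from 11.0 to 77.3 CPM and from 9.28 to 76.6 CPM, with log2 changes of 2.82 ± 0.12 and 3.05 ± 0.13 (adjusted p = 6.5e-19 and 1.6e-19). Both turned back by 18 h, when Tef was at 48.2 and 42.2 CPM and Nfil3 at 15.6 and 29.8 CPM. Nampt, an enzyme of NAD synthesis under clock control, was 4.90-fold above 0 h at 18 h in BMDM-WT and 7.07-fold in BMDM-Nur77-KO. At 18 h 4 of the 5 genes were higher in BMDM-Nur77-KO, beside 11.7% of all genes, among them Klf9 (6.19 against 3.01 CPM, log2 1.04 ± 0.22, adjusted p = 7.0e-04), Nfil3 (log2 0.93 ± 0.12, adjusted p = 5.8e-07) and Wee1 (21.0 against 11.0 CPM, log2 0.93 ± 0.16, adjusted p = 3.6e-05). The interaction at 18 h was called for Nfil3 (log2 1.17 ± 0.18, adjusted p = 2.6e-05) and Wee1 (log2 1.10 ± 0.22, adjusted p = 7.3e-04), both with more at 18 h relative to 0 h in BMDM-Nur77-KO. For these list genes only the fits with all libraries are given here, those that stood apart included.

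Across the 8 group means of log2(CPM + 1), which share libraries and LPS times, the genes fell into different shapes. Per3, Dbp and Bhlhe41 ran together (Pearson r of 0.97 for Per3 with Dbp, 0.97 for Dbp with Bhlhe41 and 0.91 for Per3 with Bhlhe41), and Per1 ran with Bhlhe41 at 0.97. Per2 was closest to Cry2, at 0.92, and to Per3, at 0.90. Arntl ran with Bhlhe40 at 0.95 and opposite to Cry1 at -0.83, while its r with Per2 was -0.13 and with its partner Clock 0.31. Outside the set, the genes most like each member over the same 8 means were Rchy1 for Arntl (0.995), Pias2 for Clock (0.967), Ano8 for Per1 (0.986), Hbp1 for Per2 (0.996), Card9 for Per3 (0.992), Cds1 for Cry1 (0.978), Tmub1 for Cry2 (0.992), Vav2 for Dbp (0.998), Tatdn2 for Bhlhe40 (0.990) and Foxk2 for Bhlhe41 (0.997). With 8 points and 11190 genes, such values are a description of likeness in these libraries.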

How the data were processed

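RNA-seq was analysed in 32 BMDM libraries, 4 for each of 2 genotypes at 4 times of LPS. The authors deposited 1 table of expected counts per RefSeq transcript without normalization. Per the labels and methods, they aligned paired-end reads from strand-specific libraries to mm10 with HISAT2 2.1.0, filtered alignments on a mapping quality over 15 with SAMtools and counted tags with HOMER. All values are multiples of 0.5, and 28.6% are not whole. Whether counting used the strand is not stated. Genes overlapping Dbp, Bhlhe40, Per3 (Camta1 and Uts2), Cry2 (D930015M05Rik) and Clock (Gm7467) could share reads with them.

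Of 42361 transcripts, 42203 were named through RefSeq and 65 through GENCODE. The 93 others (0.233% to 1.37% of tags) were left out. The transcript with the highest mean was kept for each gene, and counts were rounded to whole numbers. Genes with a mean RPKM over 1 in any group were tested, 11190 in all, with edgeR 4.0.16 (TMM, quasi-likelihood, 1 model with 8 group means) in R 4.3.3, over 17 comparisons. SEs are the log2 fold change divided by the square root of F. Alternatives were DESeq2 1.42.0, its size factors, other filters, every transcript, summed transcripts, only the libraries compared, a replicate block and each library left out. A GC correction and the fit without the 2 libraries that stood apart were added after seeing the data. The fit was tested on simulated data.

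Replicates differed by more than sampling noise, with a chi-square per degree of freedom of at least 1.94. The genes and lists were chosen with earlier results of these data known. All 10 clock genes are named, with at most 3 genes per list and comparison by size of change, and the genes most like each by Pearson r. Protein sequences were not used here.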

Additional observations from a re-analysis of the deposited data

Results flagged for a closer look

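In 7 of the 80 sets of 4 libraries examined (8 groups of each of 10 genes), 1 library lay far from the other 3 by Dixon's test, which flags about 1 in 20 sets by chance. Clock was at 48.6 CPM in WT 18 h replicate 3, against 31.3 to 34.0 in the rest of its group. Per3 was at 4.37 CPM in WT 0 h replicate 4 and at 0.221 CPM in WT 5 h replicate 3. Cry1 was at 8.79 CPM in KO 5 h replicate 2, Dbp at 1.41 CPM in WT 5 h replicate 4, Cry2 at 5.70 CPM and Bhlhe41 at 128 CPM in KO 18 h replicate 4. The last library was 1 of the 2 that stood apart from their groups over all genes.

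In 3 results the change from 0 h differed between the genotypes by the interaction test of edgeR. At 5 h the log2 difference for Bhlhe40 was -0.65, a deeper fall in BMDM-Nur77-KO. At 18 h it was 0.72 for Per1 and 0.54 for Bhlhe41, both higher in BMDM-Nur77-KO.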

How the results depend on the processing

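Over the 17 comparisons, 83 of 170 tests of the clock genes were called, and none of the 83 reversed under any alternative run. DESeq2 kept 82, its size factors 82, no filter 82, filterByExpr 83, summed transcripts 83, the GC correction 80 and only the libraries compared 77. With every transcript kept, Per3 was not tested and all other 75 calls were kept. Without the 2 libraries that stood apart, 41 of 43 were kept. The replicate block changed no call: 83 of 83 were kept. Deviations of same-numbered libraries correlated at -0.788 to 0.560 and over 0.1 in 32 of 112 pairs, so no pairing by number was seen. This cannot exclude one, since the libraries that stood apart enter these correlations.

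The number of clock genes called between genotypes at 0 h was 1, 2 with DESeq2 and 3 with only the libraries compared, and 1 to 3 with single libraries left out. At 5 h it was 2, 0 with only the libraries compared, 1 without the 2 that stood apart, 3 with summed transcripts (Per1 added), and 0 to 2 with single libraries left out. At 18 h it was 4, 2 with only the libraries compared, 5 with DESeq2 and with the GC correction (Per2 added), and 2 to 5 with single libraries left out. The interaction at 1 h gave 1 (Per1) with only the libraries compared. At 5 h it gave 0 with no filter, with only the libraries compared and without the 2 that stood apart, and 0 to 1 with single libraries left out. Clock in BMDM-Nur77-KO between 1 and 5 h went from 0.16, not called, to -0.16, called, under the GC correction. The cause was not tested.

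Only the libraries compared also moved the count over all genes, from 1416 to 2414 at 0 h, 731 to 1725 at 1 h, 2730 to 404 at 5 h and 2424 to 1609 at 18 h between genotypes, from 2271 to 3777 at 1 h of LPS in BMDM-WT, and for the interaction from 8 to 219 at 1 h and 349 to 167 at 5 h. DESeq2 gave 36 and 526 for those interactions. The GC correction gave 1131 between genotypes at 1 h and 720 for the interaction at 5 h, and leaving out the 2 libraries gave 586 and, at 18 h, 2025 in place of 1054. Single libraries moved it too: at 0 h to 929, 860 and 851 without WT 0 h replicate 3, KO 0 h replicate 1 and KO 0 h replicate 3, at 5 h to 1803 and 1494 without WT 5 h replicate 2 and KO 5 h replicate 1, and for the interaction at 1 h to as few as 2. At 5 h Per2, Per3 and Dbp had at most 14 counts per library, which limits what could be seen there.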
